A study of Mus musculus with 11 samples.

Results

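MacroH2A2 was mapped in mouse ES cells in 2 ways, and the 2 resulting ChIP-Seq libraries are compared here. The anti-MacroH2A2 library was made with an antibody against the histone itself from cells that its label calls parental KH2 ES cells. KH2 cells carry the M2rtTA transactivator at the ROSA26 locus and a recombination site downstream of Col1a1. The HA-Macro 12 h library was made with an anti-HA antibody from KH2-derived ES cells carrying a TetO-driven HA-MacroH2A2 cassette, after 12 hours of doxycycline (Dox) at 2 μg/ml. These are 2 of the 11 libraries of the series. All are of strain 129 X C57bl/6, and ES cells were grown with feeder fibroblasts that were depleted by pre-plating. The label of the anti-MacroH2A2 library states that 2 replicates were combined, and the study's texts differ on its cell line (parental or HA-MacroH2A2 inducible) and on its Dox state, so that only its antibody and cell type are used. Each condition therefore has 1 library, no difference could be set against a spread between replicates, and no p-values are given. The 3 other libraries of the inducible ES line are set beside the pair, namely no Dox (the anti-HA background), HA-Macro 3 h and HA-Macro 6 h, the 3 h and 6 h libraries at the same dose of Dox. So are 2 anti-HA libraries of KH2 ES cells with inducible HA-H3.3, which received that dose for 3 and 6 hours. From embryonic fibroblasts (MEFs) come an anti-MacroH2A2 library of wild type cells, untreated by its label and again of 2 combined replicates, and an anti-HA library of cells from HA-MacroH2A2 embryos after 12 hours of Dox. No Dox is a background for HA-Macro in ES cells only, and the series holds no input or other control for anti-MacroH2A2.

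MacroH2A proteins are H2A variants in which a large globular macro domain is joined to a histone fold. They replace H2A in a subset of nucleosomes and are best known from the inactive X chromosome and from silent developmental genes. H2afy encodes the MacroH2A1 proteins and H2afy2 encodes MacroH2A2. An antibody against the native histone reads the standing pool of the protein, whereas an epitope tag reads what the cassette made, mainly since induction. The paper saw a weak anti-HA signal at promoters without Dox, for which it proposes leaky expression or an artifact of open chromatin. The antibody, the age of the protein, the depth, the way the files were written and, by the labels, the cell line differ between the libraries and cannot be told apart.

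After removal of repeated intervals, 8283985 anti-MacroH2A2 and 17153206 HA-Macro 12 h midpoints were left on chromosomes 1 to 19. Levels are given in p.p.m. of these totals of midpoints, and ratios are log2 of HA-Macro 12 h over anti-MacroH2A2, so that positive values are higher in HA-Macro. Medians and counts over promoters, bodies and distal windows add 1 midpoint to each library. Those over tiles do not, nor do the ratios of single features, given with their counting intervals. The intervals are 400 bp long for anti-MacroH2A2 and 150 bp for HA-Macro. A cell type cannot be checked from gene expression in these data. The H2afy2 gene itself (chr10:61201391-61246895) offered one look at the cassette, since a cDNA adds exon but not intron sequence. Its 9 exons held 21 anti-MacroH2A2 and 30 HA-Macro 12 h midpoints, against 250 and 487 in its introns. Per kb, exons were 1.66 times the introns in anti-MacroH2A2, 1.21 times in HA-Macro 12 h and 1.47 times without Dox. In MEFs the same quantity was 0.727 in anti-MacroH2A2 (10 exon midpoints) and 1.54 in HA-Macro 12 h (24 exon midpoints). The HA-H3.3 libraries, whose cassette holds no H2afy2 sequence, were at 1.68 at 3 h and 1.85 at 6 h (15 and 31 exon midpoints). These values therefore cannot show the cassette.

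The promoters that stood farthest apart in either direction differed in sequence, and 3 of one kind and 2 of the other are shown. They are among the best-ranked promoters of single-copy sequence with no annotated exon in the 250 bases upstream of the TSS. These bases are given 5′ to 3′ on the coding strand from the mm9 genome, with CpG dinucleotides in capitals. Fam46a (chr9:85220732-85220981, minus strand), Ulk2 (chr11:61668576-61668825, minus) and Ugt8a (chr3:125641469-125641718, minus) were higher in anti-MacroH2A2.
Fam46a: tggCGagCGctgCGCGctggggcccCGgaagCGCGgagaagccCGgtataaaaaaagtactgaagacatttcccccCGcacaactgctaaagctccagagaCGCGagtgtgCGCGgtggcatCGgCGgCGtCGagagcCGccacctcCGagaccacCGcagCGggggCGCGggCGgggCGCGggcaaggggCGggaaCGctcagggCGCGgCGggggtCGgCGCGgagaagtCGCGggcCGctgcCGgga
Ulk2: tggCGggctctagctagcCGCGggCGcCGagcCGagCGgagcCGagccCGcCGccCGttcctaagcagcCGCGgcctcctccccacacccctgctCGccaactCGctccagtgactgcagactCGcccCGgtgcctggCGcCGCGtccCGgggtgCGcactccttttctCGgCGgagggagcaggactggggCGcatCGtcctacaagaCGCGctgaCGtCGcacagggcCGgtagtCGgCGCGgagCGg
Ugt8a: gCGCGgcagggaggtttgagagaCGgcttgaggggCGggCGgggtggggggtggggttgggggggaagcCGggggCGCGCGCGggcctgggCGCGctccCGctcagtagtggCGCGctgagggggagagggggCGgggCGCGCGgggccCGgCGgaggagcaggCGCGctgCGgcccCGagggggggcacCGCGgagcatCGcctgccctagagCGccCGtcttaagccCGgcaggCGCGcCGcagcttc
Spic (chr10:88147761-88148010, minus strand) and Fabp1 (chr6:71149571-71149820, plus) were higher in HA-Macro 12 h.
Spic: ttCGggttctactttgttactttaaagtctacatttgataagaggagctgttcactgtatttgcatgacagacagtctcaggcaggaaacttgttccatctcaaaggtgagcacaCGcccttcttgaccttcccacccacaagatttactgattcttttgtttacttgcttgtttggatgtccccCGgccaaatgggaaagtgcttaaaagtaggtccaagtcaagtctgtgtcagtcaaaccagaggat
Fabp1: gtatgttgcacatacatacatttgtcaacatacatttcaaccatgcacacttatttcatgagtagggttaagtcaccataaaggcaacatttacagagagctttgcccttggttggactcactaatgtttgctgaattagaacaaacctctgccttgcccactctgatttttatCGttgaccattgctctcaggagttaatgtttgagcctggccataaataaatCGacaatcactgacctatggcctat
The first group holds 38, 35 and 34 CpG and the second 3 and 2. The first 3 are the densest of the promoters ranked first for anti-MacroH2A2 below. Ralgapa2 holds 29, Tmem158 22, Grk4 and Pigs 17 each, and Bmp8b 16. For HA-Macro 12 h, Gm11042 holds 8, Vit 4, Vmn2r12 3, Cd63 2 and Best3 0. Each printed promoter had enough reads to be compared only through the library in which it was higher. The filter thus favoured its direction. CG, which reads the same on both strands, occurs at least once in 92.5% of the 250-base windows upstream of 20778 protein-coding TSSs, with a median of 9 copies. It was 14 copies for the 10752 promoters with enough reads to be compared, 98.1% of which hold a CG. Among these the median was 17 copies for the 4494 promoters at least 2-fold higher in anti-MacroH2A2 and 3 for the 183 at least 2-fold higher in HA-Macro 12 h.

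The first question was how far the libraries resembled each other over long distances. The 24731 tiles of 100 kb were reduced by the 240 with the most no-Dox reads and by 805 in which one or both libraries held no midpoint. Over the remaining 23686 tiles the median ratio was -0.04, with quartiles of -0.19 and 0.12. Pearson's r of the log2 levels was 0.637, which describes tiles that share base composition and mappability within each library. HA-Macro 12 h was at least 1.5-fold higher in 861 tiles (3.64%) and anti-MacroH2A2 in 122 tiles (0.515%). The standard deviation of the ratio was 0.54, whereas counting error alone gives 0.12.

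The tiles past 1.5-fold were not spread evenly. Of the 861 tiles higher in HA-Macro 12 h, 700 lay in sequence that occurs more than once in the genome, 112 in single-copy tiles of a single segment of chromosome 3, and 48 elsewhere. Of all 142 tiles of that segment, repeated ones included, 132 were past 1.5-fold. Of the 122 tiles higher in anti-MacroH2A2, 28 lay in a segment of chromosome 14, 92 elsewhere and 1 in repeated sequence. In each direction 1 further tile held no sequenced base. Repeated sequence is defined here as at least 25% of 36-base words occurring again in the genome, and both the definition and the segments were chosen after the data were seen.

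As the share of repeated words rose, the anti-MacroH2A2 level fell, and in tiles with 70% or more it was close to empty, while HA-Macro 12 h changed less. Where under 5% of words were repeated, the median ratio of 4862 tiles was -0.13, at levels of 49.0 p.p.m. (anti-MacroH2A2) and 46.4 p.p.m. (HA-Macro 12 h). The ratio rose with the repeated share to 0.22 between 30 and 40%, 0.93 between 50 and 70%, and 2.94 in the 363 tiles with 70% or more. There the median was 4.23 p.p.m. for anti-MacroH2A2, 33.4 p.p.m. for HA-Macro 12 h and 38.5 p.p.m. without Dox. HA-Macro 3 h and 6 h were at 31.3 and 32.4 p.p.m. Low levels were shared by the other libraries deposited as 400 bp intervals, with 3.44 p.p.m. for anti-MacroH2A2 in MEFs and 3.66 and 3.27 p.p.m. for HA-H3.3 at 3 and 6 h, the latter made with anti-HA. HA-Macro at 12 h in MEFs, deposited as 150 bp intervals, was at 22.5 p.p.m. The part of interval length in these levels was not tested.

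Of the mostly repeated tiles past 1.5-fold, 83 were on chromosome 7, 69 on chromosome 14 and 53 on chromosome 12. The 3 tiles ranked first lie in Gm3383 (chr14:5400001-5500000 and chr14:5300001-5400000) and in Srp54b (chr12:56200001-56300000), a signal recognition particle gene. Each held 1 anti-MacroH2A2 midpoint, against 675, 659 and 669 in HA-Macro 12 h. Without Dox the same tiles held 525, 528 and 516, so that these HA-Macro levels were at or below the anti-HA background in p.p.m. Counts of promoters, bodies and distal windows are therefore also given for single-copy sequence below.

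A segment of chromosome 3 (chr3:57000001-71200000) was low in anti-MacroH2A2 alone. Over its 122 single-copy tiles the median was 19.1 p.p.m. in anti-MacroH2A2, against 31.3 p.p.m. in the 2 Mb on either side. HA-Macro 12 h was at 34.4 p.p.m. inside and 28.6 p.p.m. outside, and no Dox at 40.1 and 38.5 p.p.m. The level inside over that outside was 0.61 for anti-MacroH2A2 and between 1.04 and 1.59 in the other 8 libraries used. The ratio had a median of 0.88 and was positive in every tile, from 0.39 to 1.36.

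This segment holds 83 protein-coding TSSs, and most bodies tested there had the same direction. Schip1 was at 129 p.p.m. in anti-MacroH2A2 and 245 p.p.m. in HA-Macro 12 h (log2 0.92, counting interval 0.82 to 1.02). Mbnl1, an RNA-binding splicing regulator, was at 27.4 and 47.6 p.p.m. (0.80, interval 0.58 to 1.01). Kcnab1, a potassium channel subunit, was at 53.8 and 92.1 p.p.m. (0.77, interval 0.62 to 0.93). Of 67 bodies tested, 59 were at least 1.5-fold higher in HA-Macro 12 h, beside 5.28% of all tested bodies, as were 462 of 703 distal windows, beside 12.5% of all. At its 16 tested promoters the median ratio was 0.09, against -0.87 at all tested promoters.

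A shorter segment of chromosome 14 (chr14:70400001-73300000) behaved in the opposite way, and here the libraries of the inducible line were low. In its 29 tiles HA-Macro 12 h was at 19.3 p.p.m. inside against 34.2 p.p.m. outside, HA-Macro 6 h at 18.1 against 34.6 and no Dox at 20.9 against 39.1. HA-Macro in MEFs at 12 h stood at 0.495 of its flanks. Anti-MacroH2A2 was at 35.97 inside and 38.5 p.p.m. outside, a share of 0.93. HA-Macro 3 h, at 0.89 of its flanks, did not share the low level of the other libraries of its line. This library therefore stands apart from HA-Macro 6 h and 12 h, and values that compare it with them carry that difference.

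The ratio over this segment was -1.01 and ranged from -1.38 to -0.55. Hr, which encodes the hairless corepressor, had the body ranked first for anti-MacroH2A2, at 27.3 p.p.m., with HA-Macro 12 h at 8.57 p.p.m. (-1.67, interval -1.98 to -1.36). Gfra2, a neurturin receptor, was at 43.0 and 17.3 p.p.m., and Lgi3, a secreted neuronal protein, at 10.0 and 3.21 p.p.m. Bmp1, a procollagen protease, was at 33.6 and 13.5 p.p.m. Of 20 bodies tested, 19 were at least 1.5-fold higher in anti-MacroH2A2, beside 8.3% of all tested bodies, and so were 12 of 13 promoters at 2-fold, beside 41.8% of all tested promoters. Both segments were chosen by this ratio, so that these counts are a description. Among all distal windows, the 3 ranked first for anti-MacroH2A2 lie in this segment.

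**Figure D1:**
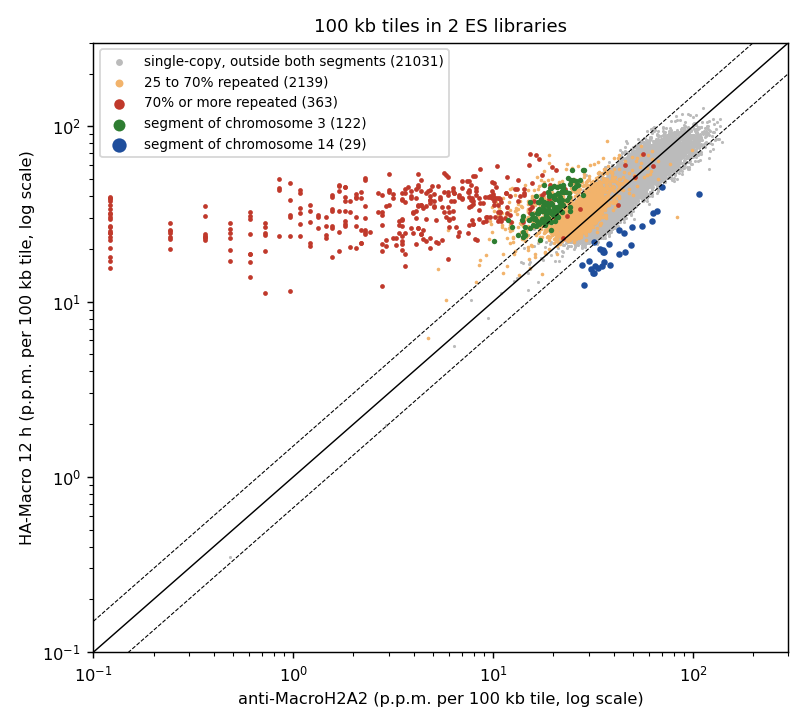
Levels of HA-Macro 12 h (y axis) against anti-MacroH2A2 (x axis) in 100 kb tiles, both in p.p.m. on log scales, with 1 point per tile; the solid line marks equal levels and the dashed lines 1.5-fold. Tiles with 70% or more repeated sequence (363, red) extend to the left at HA-Macro levels near those of the other tiles, the segment of chromosome 3 (green) lies above the line and that of chromosome 14 (blue) below it, and 2 tiles without sequenced bases are not classed.

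Outside repeated sequence and both segments the libraries were much closer. Over 21031 such tiles r was 0.890 and the standard deviation of the ratio 0.22, with 0.10 from counting. The level spread over the same range, with 27.6 to 73.6 p.p.m. between the 5th and 95th percentiles for anti-MacroH2A2 and 25.2 to 71.3 p.p.m. for HA-Macro 12 h. No Dox ran from 35.1 to 49.5 p.p.m. Of the 2103 highest tiles of either library, 1441 were shared, or 68.5% of each list. Anti-MacroH2A2 shared 1107, or 52.6%, of its highest tiles with no Dox. The lowest 2103 shared 1046, or 49.7%.

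These tiles were next arranged by base composition and by the number of annotated TSSs. Both libraries rose with GC content, from 30.3 p.p.m. (anti-MacroH2A2) and 27.1 p.p.m. (HA-Macro 12 h) in the lowest decile, at a median GC of 36.5%, to 73.4 and 67.8 p.p.m. in the highest, at 49.3%. No Dox moved from 40.9 to 47.6 p.p.m. The ratio did not move in 1 direction. It was -0.15 in the lowest decile, rose to 0.02 in the eighth decile (44.8% GC), and was -0.15 again in the highest, with quartiles of -0.30 and 0.00. Of the 92 tiles at least 1.5-fold higher in anti-MacroH2A2, 51 were in the highest GC decile, against 1 of the 48 higher in HA-Macro 12 h.

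Taken without regard to GC content, gene number moved the median ratio less than GC content did. Tiles without a TSS had a median of -0.11, tiles with 1 gene -0.06, with 2 to 3 genes -0.03, with 4 to 6 genes -0.02 and with 7 or more -0.08. From the fifth to the eighth GC decile the ratio was lowest in tiles without genes and rose up to 4 to 6 genes. It went from -0.11 to 0.06 in the fifth decile and from -0.08 to 0.06 in the sixth. In tiles without genes the ratio went from -0.15 in the lowest to -0.03 in the eighth GC decile. Within these classes gene number thus did not move the ratio less than GC content. With 7 or more genes it was 0.09 in the sixth decile but below the class of 4 to 6 genes in the fifth, seventh and eighth. In the highest GC decile it was between -0.17 and -0.14 in all 5 classes. With 2 kb on each side of every TSS removed, the highest decile was at -0.12.

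**Figure D2:**
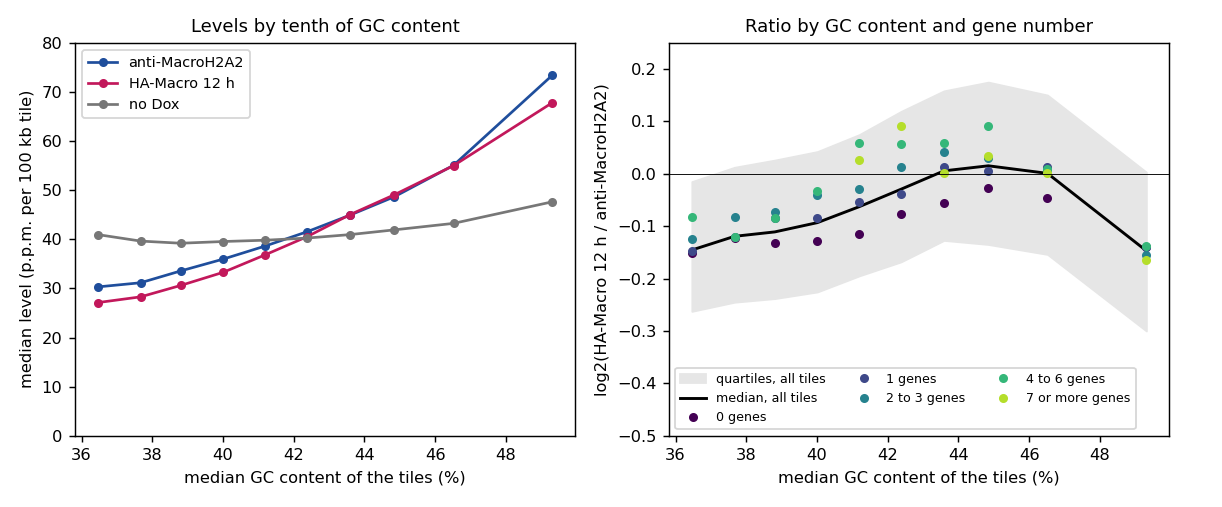
Left, median level in p.p.m. per tile of anti-MacroH2A2, HA-Macro 12 h and no Dox by median GC content (%) of GC deciles, over 21031 single-copy tiles outside the segments. Right, log2 ratio of HA-Macro 12 h to anti-MacroH2A2 as median (line) and quartiles (band) of all tiles, with points for classes of gene number of at least 20 tiles; the median is lowest in the lowest and highest deciles, at -0.15 in both.

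Single tiles, like the promoters, bodies and windows below, were ranked by the bound of the counting interval nearest to equal levels. The tile ranked first for anti-MacroH2A2 lies in Nlgn1, a synaptic adhesion gene (chr3:25400001-25500000), at 83.1 against 30.2 p.p.m., and 31.4% of its words are repeated. In single-copy sequence outside the segments anti-MacroH2A2 was higher at Setd3 and Ccdc85c (chr12:109400001-109500000), with 120 against 56.8 p.p.m. (-1.08, interval -1.21 to -0.95). It was at 120 against 66.3 p.p.m. at Trim11 (chr11:58800001-58900000) and 140 against 81.4 p.p.m. at Tpsb2, a mast cell tryptase (chr17:25500001-25600000). HA-Macro 12 h was higher at Fcgr2b, an inhibitory Fc receptor (chr1:172900001-173000000), with 82.2 against 46.4 p.p.m. (0.83, interval 0.66 to 0.99). It was also higher at Reep3 (chr10:66400001-66500000), with 79.8 against 47.0 p.p.m., and in a tile without a gene (chr18:8100001-8200000), with 52.7 against 28.97 p.p.m. No Dox was between 43.5 and 55.7 p.p.m. in these 6 single-copy tiles, and the higher library stood above it in each. The 48 tiles higher in HA-Macro 12 h were also high in HA-H3.3 at 6 h, where their median was 74.7 p.p.m., whereas the 92 tiles higher in anti-MacroH2A2 had 32.9 p.p.m. In HA-H3.3 at 3 h the medians were 50.7 and 49.1 p.p.m., so that the 3 h library did not show this contrast.

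By annotation, promoters (1 kb on each side of a TSS) took 4.36% of anti-MacroH2A2 midpoints (exact binomial interval 4.34 to 4.37%) and 3.44% of HA-Macro 12 h midpoints (3.43 to 3.45%), with 3.07% without Dox. Exons outside promoters took 4.95% and 3.86%, and introns 38.9% and 38.1%. Sequence within 10 kb of a gene took 12.3% and 14.1%, and the remaining distal sequence 39.5% and 40.5%. HA-Macro 12 h was thus lower at promoters and exons and higher beside genes. These intervals, like those of single genes, cover counting error only.

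Of 21418 protein-coding promoters (600 bp on each side of the TSS), 640 touched a discarded tile and 10026 held fewer than 20 midpoints in both libraries together, which left 10752. These held medians of 13 anti-MacroH2A2 and 16 HA-Macro 12 h midpoints, so that single promoters are known only roughly. As the minimum was set on the sum, a promoter with few midpoints in either library was tested only where the other held many. The median ratio was -0.87, with quartiles of -1.29 and -0.42. Anti-MacroH2A2 was at least 2-fold higher at 4494 promoters (41.8%) and HA-Macro 12 h at 183 (1.7%). Over all promoters outside discarded tiles, with no minimum, the mean was 1.16 p.p.m. in anti-MacroH2A2, 0.72 in HA-Macro 12 h and 0.66 without Dox.

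The difference followed CpG content. Promoters were grouped by CpG observed over expected in the 1.2 kb window, over single-copy promoters outside the segments. At 5275 CpG-poor promoters (ratio under 0.3) the mean was 0.75 p.p.m. for anti-MacroH2A2 and 0.63 for HA-Macro 12 h, with 0.55 without Dox. At 5207 promoters between 0.7 and 0.9 anti-MacroH2A2 was at 1.598 p.p.m., HA-Macro 12 h at 0.81 and no Dox at 0.77. The log2 ratio of the summed reads was -0.26 (counting interval -0.28 to -0.24) in the first class and -0.99 (interval -1.003 to -0.97) in the second. Over no Dox, CpG-rich promoters of the second class were 1.06 higher on the log2 scale in anti-MacroH2A2 and 0.07 higher in HA-Macro 12 h. The value for anti-MacroH2A2 compares different antibodies and is not an enrichment over its own control. HA-Macro 3 h was at 1.54 p.p.m. and 6 h at 1.08 p.p.m. in this class, so that the values fell with time of induction, with the difference of the 3 h library named above.

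**Figure D3:**
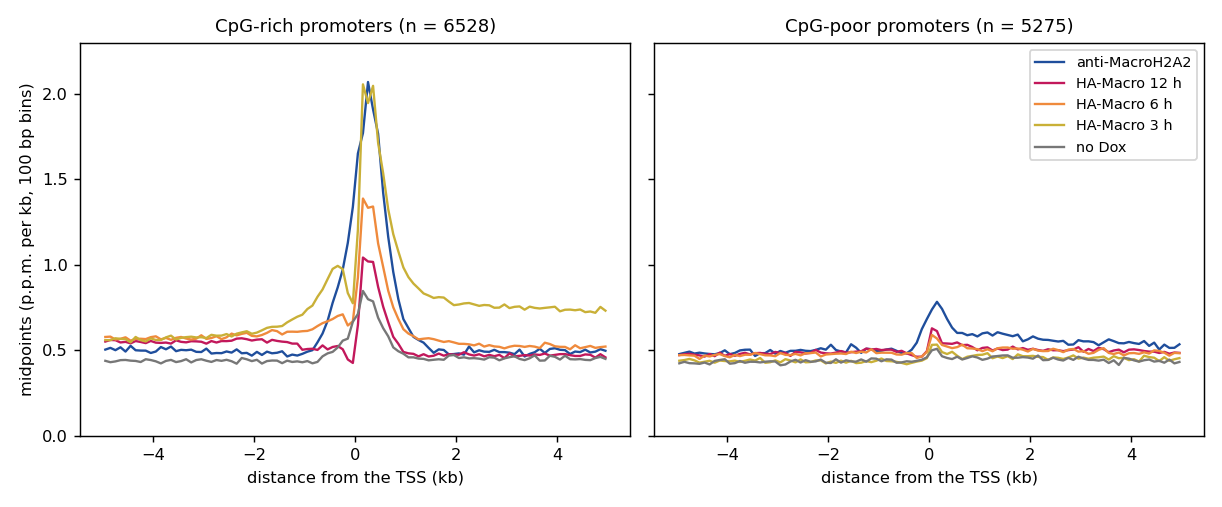
Midpoints in p.p.m. per kb and promoter, in 100 bp bins, by distance from the TSS in kb, for 6528 CpG-rich (observed over expected of 0.7 or more) and 5275 CpG-poor (under 0.3) promoters in 5 ES libraries. At CpG-rich promoters anti-MacroH2A2 and HA-Macro 3 h reach 2.07 and 2.06, HA-Macro 6 h 1.39, HA-Macro 12 h 1.04 and no Dox 0.85.

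The shape around the TSS also differed. At CpG-rich promoters anti-MacroH2A2 rose from 0.50 p.p.m. per kb at 3 to 5 kb from the TSS to 2.07 at 250 bp downstream, whereas HA-Macro 12 h rose from 0.51 to 1.04 at 150 bp downstream. Within 200 bp upstream HA-Macro 12 h dropped to 0.43, below its own level at 3 to 5 kb, while anti-MacroH2A2 did not drop under 1.13 and no Dox not under 0.57. No Dox also rose at these promoters, from 0.45 at 3 to 5 kb to 0.85 at 150 bp downstream. CpG-poor promoters peaked at 0.78 p.p.m. per kb in anti-MacroH2A2 and 0.63 in HA-Macro 12 h. The part of the different interval lengths in these shapes was not tested.

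Within single genes the promoter stood apart from its own body. Of 8609 genes with both tested, the promoter had the lower ratio in 85.1%. For 4397 CpG-rich genes the medians were -1.05 at promoters and -0.09 over bodies, and for 1077 CpG-poor genes they were -0.34 and -0.16.

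Among single promoters, the 8 ranked first for anti-MacroH2A2 all had CpG ratios of at least 0.72. Apart from Bmp8b, they held 3 to 8 HA-Macro 12 h midpoints and reached the minimum of 20 only through anti-MacroH2A2. The filter thus favoured their direction, and their CpG ratios are a description of selected promoters. Fam46a, a non-canonical poly(A) polymerase whose CpG-dense upstream sequence is printed above, held 21 anti-MacroH2A2 and 3 HA-Macro 12 h midpoints, or 2.54 and 0.175 p.p.m. (-3.86, interval -6.25 to -2.11). No Dox held 4, HA-Macro 6 h 11 and HA-Macro 3 h 22. Ulk2, an autophagy kinase, held 26 and 6, with 12 without Dox. Ugt8a, which makes galactosylceramide for myelin, held 23 and 5, with 6 without Dox. At these 3 promoters HA-Macro 12 h was below no Dox in p.p.m., at few midpoints in both.

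Bmp8b, a BMP ligand, had the most reads of the group, with 42 anti-MacroH2A2 and 15 HA-Macro 12 h midpoints, or 5.07 and 0.874 p.p.m. (-2.54, interval -3.49 to -1.66). Grk4, a G protein-coupled receptor kinase, was at 2.90 and 0.291 p.p.m. Pigs, a subunit of the GPI transamidase, was at 2.78 and 0.350 p.p.m., and Ralgapa2, a GTPase-activating protein for Ral, at 2.29 and 0.233 p.p.m. Tmem158, a membrane protein, was at 3.38 and 0.466 p.p.m. No Dox was between 0.351 and 1.49 p.p.m. at all 8.

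The 8 promoters ranked first for HA-Macro 12 h all lay in repeated sequence, with 68.8 to 100.0% of words repeated. Gm11011 held 2 anti-MacroH2A2 and 148 HA-Macro 12 h midpoints (5.16, interval 3.28 to 8.22), with 12 without Dox, 24 at 3 h and 132 at 6 h. It stood out because HA-Macro 6 h and 12 h were far above the no-Dox library. At Hba-a1, an alpha-globin gene, anti-MacroH2A2 held 0, HA-Macro 12 h 25 and no Dox 6 midpoints. Sytl3, a synaptotagmin-like protein, held 0, 30 and 12, and Ifnz, an interferon, 0, 25 and 10. The other 4 (Gm4782, Gm3250, Gm3401 and Gm3194) also held no anti-MacroH2A2 midpoint.

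With only single-copy promoters outside the segments, the same rank gave, among others, genes of low CpG content. Spic, an Ets-family factor of macrophages, held 5 anti-MacroH2A2 and 49 HA-Macro 12 h midpoints, with 4 without Dox and 56 at 6 h. Fabp1, the liver fatty acid binding protein, held 5 and 44, with 6 without Dox. For both HA-Macro 12 h was above the no-Dox level as well as above anti-MacroH2A2.

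Lower-count members followed. Best3, a bestrophin channel, held 4 and 34 midpoints, and Gm11042 held 3 and 30. Cd63, a tetraspanin, and Vmn2r12, a pheromone receptor, each held 1 and 20, and Vit, a matrix protein, held 1 and 19, so that their intervals reached from 0.54 to 8.65. Like Spic and Fabp1, these promoters reached the minimum of 20 midpoints only through HA-Macro 12 h, so that the filter set their direction. HA-Macro 12 h was at least 2-fold higher at 103 single-copy promoters outside the segments, and anti-MacroH2A2 at 4472.

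Gene families were then described by counts and medians beside the -0.87 and 41.8% of all tested promoters. Of 105 developmental transcription factor genes of the Pax, Gata, Lhx, Nkx, Fox, Tbx and Sox families, 81 were tested, with a median of -1.05, and 41 were 2-fold higher in anti-MacroH2A2. The median CpG ratio of this list was 0.68. All tested promoters with a CpG ratio of 0.5 to 0.7 had a median of -0.96, with 47.4% past 2-fold in anti-MacroH2A2. Those of 0.7 to 0.9 had -1.05 and 50.3%, so that the list was near promoters of like CpG content. The mean level of the list was 1.75 p.p.m. in anti-MacroH2A2, 0.86 in HA-Macro 12 h and 0.70 without Dox. Sox10, a neural crest factor, was at 4.23 and 1.57 p.p.m. (-1.42, interval -2.20 to -0.66). Gata2, a haematopoietic factor, was at 3.14 and 1.87 p.p.m. (-0.75, interval -1.54 to 0.05), Nkx1-1 at 3.62 and 1.63 p.p.m., and Tbx4, a hindlimb factor, at 3.26 and 1.98 p.p.m. with an interval that includes equal levels.

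Hox genes, which set position along the body axis, had a median of -0.96 over 27 tested, 13 of them past 2-fold. Their median CpG ratio was 0.62, and all tested promoters of 0.5 to 0.7 had the same median, with 47.4% past 2-fold. Hoxd1 was at 3.62 and 0.82 p.p.m. (-2.15, interval -3.18 to -1.19) and Hoxd9 at 3.62 and 0.93 p.p.m. (-1.96, interval -2.93 to -1.04). Hoxb13 was at 3.14 and 1.52 p.p.m. and Hoxd13 at 2.54 and 1.22 p.p.m., both with a ratio of -1.05. Wnt ligands had the highest mean of all lists in both libraries, at 2.09 and 1.18 p.p.m., with 0.78 without Dox, and 5 of 16 were past 2-fold. Wnt10a was at 2.90 and 1.75 p.p.m., with 0.351 without Dox, and Wnt3a at 3.38 and 1.52 p.p.m. The intervals of Wnt10a, Wnt2b (2.41 and 2.04 p.p.m.) and Wnt9a (2.66 and 1.46 p.p.m.) include equal levels. Keratin genes, with a median CpG ratio of 0.32, were at 1.48 and 0.88 p.p.m., and 13 of 33 were past 2-fold. Krt80 was at 4.35 and 1.87 p.p.m., Krt81 at 3.02 and 1.28, Krt17 at 2.78 and 1.52 and Krt79 at 2.66 and 1.98 p.p.m. The intervals of Krt17 and Krt79 include equal levels. In all 4 lists HA-Macro 12 h was above no Dox and below anti-MacroH2A2.

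Ribosomal protein, proteasome and Zfp genes lay near the overall median. Ribosomal protein genes had -0.76 over 28 tested of 75, with 10 past 2-fold, and means of 1.02, 0.68 and 0.69 p.p.m. in anti-MacroH2A2, HA-Macro 12 h and no Dox. HA-Macro 3 h was at 1.87 p.p.m. at these promoters. Proteasome genes had -0.70 over 22 tested, with 5 past 2-fold. Zfp genes, which encode zinc finger proteins, had -0.89 over 136 tested, with 55 past 2-fold and means of 0.98, 0.63 and 0.66 p.p.m. At these ribosomal protein and Zfp promoters HA-Macro 12 h was not above no Dox in p.p.m. of each library's own total. No Dox itself rises at promoters, so that this does not show HA-Macro to be absent there.

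Replication-dependent histone genes had a median CpG ratio of 0.84, and 21 tested promoters of 67 had a median of 0.72. Of these, 5 were past 2-fold in HA-Macro 12 h, beside 1.7% of all tested promoters, and 2 in anti-MacroH2A2. The 7 in single-copy sequence had a median of -0.42, so that the direction turned, and the 2 past 2-fold in anti-MacroH2A2 were among them. The mean was 0.49 p.p.m. in anti-MacroH2A2, 0.73 in HA-Macro 12 h and 0.94 without Dox. Hist2h2aa1 and Hist2h3c1 (TSSs at chr3:96049461 and chr3:96049477) share nearly all of their promoter windows, with 68.8% repeated words, and thus the same 6 and 23 midpoints (0.89, interval -0.45 to 2.47). Hist2h3b was at 1.21 and 1.17 p.p.m. and Hist4h4 at 1.81 and 0.76 p.p.m. (-1.26, interval -2.45 to -0.08). The median share of repeated words at these promoters was 29.2%, against 0% at all protein-coding promoters, and its part in the result was not tested.

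Olfactory receptor genes, which lie in AT-rich clusters, had few reads. Of 1106, 100 were tested, with a median of -0.17, 13 past 2-fold in anti-MacroH2A2 and 14 in HA-Macro 12 h, beside 41.8% and 1.7% of all tested promoters. Their median CpG ratio was 0.13, and tested promoters with a ratio under 0.3 had a median of -0.31. Of those, 16.8% were past 2-fold in anti-MacroH2A2 and 118 of 1698 in HA-Macro 12 h. The 82 olfactory receptor promoters in single-copy sequence had a median of -0.29, with 13 and 7 past 2-fold. CpG-poor single-copy promoters outside the segments had -0.37, with 17.9% past 2-fold in anti-MacroH2A2 and 76 of 1561 in HA-Macro 12 h. Over the olfactory receptor family the means were 0.52 and 0.49 p.p.m., both below the 0.57 p.p.m. without Dox. Of the 4 with the most reads, Olfr1344 was at 4.59 and 1.40 p.p.m. (-1.71, interval -2.51 to -0.94) and Olfr1349 at 2.90 and 1.05 p.p.m. The intervals of Olfr222 (2.29 and 2.04 p.p.m.) and Olfr279 (1.09 and 1.98 p.p.m.) include equal levels. Vomeronasal receptor genes had a median of -0.04 over 12 tested of 321. Of these, 2 were past 2-fold in HA-Macro 12 h, beside 1.7% of all tested promoters, and 0 in anti-MacroH2A2, beside 41.8%. The 8 in single-copy sequence, which hold both of them, had a median of 0.37, so that the direction turned. Family means were 0.32, 0.39 and 0.58 p.p.m. in anti-MacroH2A2, HA-Macro 12 h and no Dox.

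Pluripotency genes had a median of -0.77 over 11 tested of 21, with 4 past 2-fold in anti-MacroH2A2 and 1 in HA-Macro 12 h. Pou5f1, which encodes Oct4, held 23 anti-MacroH2A2 and 18 HA-Macro 12 h midpoints, or 2.78 and 1.05 p.p.m. (-1.40, interval -2.38 to -0.45), with 0.97 without Dox. Klf2 was at 3.38 and 1.17 p.p.m. (-1.54, interval -2.44 to -0.66). Utf1 was at 2.05 and 1.40 p.p.m. and Fgf4 at 2.17 and 1.28 p.p.m. Sox2 (1.09 and 0.758 p.p.m.) and Nanog (0.483 and 0.758 p.p.m.) were added after their values were seen, and the counting intervals of these last 4 include equal levels.

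Fibroblast genes, listed because feeder cells could remain, had a median of -1.43 over 7 tested of 13, with 4 past 2-fold in anti-MacroH2A2. Col5a1 was at 2.29 and 0.58 p.p.m. and Thy1, a surface protein of fibroblasts, at 2.05 and 0.52 p.p.m., with 1.85 without Dox. S100a4 was at 1.45 and 0.874 p.p.m., and its interval includes equal levels. The part of feeder cells in any difference was not tested. H2afy2 itself was at 1.93 and 0.41 p.p.m. (-2.24, interval -3.77 to -0.88), and H2afy at 0.97 and 0.70 p.p.m. (-0.47, interval -1.88 to 1.03). Of the genes next to the engineered sites, the Col1a1 promoter was at 1.09 and 0.87 p.p.m. The recombination site lies downstream of this gene and thus outside the promoter window. The Gt(ROSA)26Sor promoter was at 1.57 and 1.40 p.p.m., and both intervals include equal levels.

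Over gene bodies, from 2 kb after the TSS to the end of the gene, the libraries were closer than at promoters. Of 15864 protein-coding genes of at least 5 kb, 549 touched a discarded tile and 407 held fewer than 40 midpoints. The median ratio of the remaining 14908 was -0.09, with quartiles of -0.30 and 0.11. Anti-MacroH2A2 was at least 1.5-fold higher at 1237 (8.3%) and HA-Macro 12 h at 787 (5.28%). In single-copy sequence outside the segments the counts were 1216 and 236 of 13960.

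GC content and length both moved with the ratio of bodies. It was -0.12 in the lowest GC decile, -0.01 in the fifth (44.2% GC) and -0.54 in the highest (53.4% GC), where 614 of 1396 bodies were at least 1.5-fold higher in anti-MacroH2A2. Bodies under 10 kb had a median of -0.26 and those of 50 to 100 kb -0.06. Above 200 kb the median was -0.09 in the shorter class (678 genes) and -0.13 in the longer (184 genes). Short genes are richer in GC, at 48.5% against 43.2%. With GC over 50% the median was -0.47 under 10 kb, -0.41 at 20 to 50 kb and -0.30 at 100 to 200 kb, and with GC of 42 to 46% it was -0.05, -0.01 and -0.03.

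Apart from the segment of chromosome 14, the bodies ranked first for anti-MacroH2A2 were mostly GC-rich and compact. Jag2, a Notch ligand, held 429 anti-MacroH2A2 and 335 HA-Macro 12 h midpoints, or 51.8 and 19.5 p.p.m. (-1.41, interval -1.62 to -1.20), with 13.9 p.p.m. without Dox and a GC content of 58.6%. Ccdc85c was at 103 and 44.1 p.p.m. (-1.23, interval -1.37 to -1.09), with 75.7 p.p.m. at 3 h. Aspg, an asparaginase, was at 35.2 and 14.6 p.p.m. Both libraries were above no Dox at these 3 genes.

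Syt8, a synaptotagmin, was at 7.24 and 1.92 p.p.m. (-1.91, interval -2.57 to -1.28), with 2.197 p.p.m. without Dox. Gigyf1 was at 13.5 and 4.49 p.p.m., Armc5 at 12.3 and 4.14 p.p.m., and Fdxr, a mitochondrial reductase, at 10.1 and 3.38 p.p.m. Klf4, a pluripotency factor with a short gene, was at 3.74 and 0.991 p.p.m. (-1.92, interval -2.86 to -1.02). No Dox was at 5.10 p.p.m. at Gigyf1, 3.95 at Armc5, 2.55 at Fdxr and 1.41 at Klf4, so that HA-Macro 12 h was below it at Syt8, Gigyf1 and Klf4.

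All 8 bodies ranked first for HA-Macro 12 h had at least 99.4% repeated words. Gm3383 held 1 anti-MacroH2A2, 1454 HA-Macro 12 h and 1144 no-Dox midpoints, and Gm7971 held 0, 723 and 556. The other 6 were Gm3358, Gm3194, Gm3002, Gm2833, Gm2963 and Gm8348, all predicted gene models. In p.p.m., HA-Macro 12 h exceeded no Dox only at Gm2833 (37.02 and 20.2 p.p.m.) among these 8.

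In single-copy sequence, Mocos, a molybdenum cofactor sulfurase, had the most reads, with 407 anti-MacroH2A2 and 1497 HA-Macro 12 h midpoints, or 49.1 and 87.3 p.p.m. (0.83, interval 0.67 to 0.99). It was at 24.7 p.p.m. without Dox, 36.2 at 3 h and 86.4 at 6 h. Muc19, a gel-forming mucin, was at 33.9 and 59.8 p.p.m., with 51.05 without Dox. Cwh43 was at 16.4 and 30.1 p.p.m., 4930415O20Rik at 7.12 and 16.5 p.p.m., and Gm5089 at 8.21 and 16.3 p.p.m. Cd8a, a T cell coreceptor, was at 0.966 and 3.56 p.p.m. (1.88, interval 0.81 to 3.16). Nudcd2 and Prdx3, a mitochondrial peroxiredoxin, were low in anti-MacroH2A2 (0.604 and 1.33 p.p.m.) with HA-Macro 12 h (3.32 and 3.85 p.p.m.) near no Dox (3.16 and 4.39 p.p.m.).

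Along 8563 single-copy genes of at least 20 kb the ratio of the averages was 0.07 from 20 to 4 kb upstream, -0.34 in the first twentieth of the gene, -0.08 in the middle and -0.22 in the last twentieth. Downstream of the gene end, from 4 to 20 kb, it was -0.02. Both ends of genes were thus relatively higher in anti-MacroH2A2 than the surrounding sequence. Among the families, keratin bodies had a median of -0.41, with 14 of 34 past 1.5-fold in anti-MacroH2A2, and developmental factors -0.28, with 13 of 62, beside 8.3% of all tested bodies. Vomeronasal receptor bodies had 0.39, with 52 of 122 past 1.5-fold in HA-Macro 12 h, beside 5.28% of all tested bodies, and a median repeated share of 33.6%. The 47 of these bodies in single-copy sequence had a median of -0.08, with 5 past 1.5-fold in HA-Macro 12 h and 2 in anti-MacroH2A2. Of all single-copy bodies, 2.07% and 8.8% were past it.

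Distal windows lay at least 10 kb from any gene. Of 97459 windows of 10 kb, 96161 held at least 40 midpoints outside discarded tiles. The median ratio was -0.07, and HA-Macro 12 h was at least 1.5-fold higher in 11996 (12.5%) and anti-MacroH2A2 in 11183 (11.6%). Of the windows higher in HA-Macro 12 h, 8428 were in repeated sequence, and single-copy windows outside the segments gave 3241 and 10615 of 75150. Their standard deviation was 0.41, with 0.32 from counting, so that single windows were resolved poorly at this depth.

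The median ratio of distal windows rose with GC content up to the ninth decile and was level between the ninth and the highest. It was -0.30 at a median GC of 34.9% and -0.02 at 47.4%. The ratio of the summed reads was 0.04 (interval 0.04 to 0.05) in the ninth decile and 0.02 (interval 0.02 to 0.03) in the highest. Mean levels went from 3.31 (anti-MacroH2A2) and 2.77 p.p.m. (HA-Macro 12 h) to 6.25 and 6.35 p.p.m., with 4.41 and 4.23 p.p.m. without Dox. Bodies of like GC (47.2%, the seventh decile of bodies) had a median of -0.06.

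Promoters and distal windows were also ranked by a library outside the pair, HA-H3.3 in ES cells at 6 h of Dox. H3.3 is an H3 variant laid down outside replication at active promoters and enhancers. The HA-H3.3 library shares the anti-HA antibody with HA-Macro and the 400 bp intervals with anti-MacroH2A2. Distal windows and promoters went opposite ways. From the lowest to the highest decile of HA-H3.3, distal windows went from 3.17 to 5.70 p.p.m. in anti-MacroH2A2 and from 2.74 to 6.93 p.p.m. in HA-Macro 12 h. The ratio of the sums rose from -0.21 (interval -0.22 to -0.20) to 0.28 (interval 0.28 to 0.29).

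In the highest decile 19.8% of 7515 distal windows were at least 1.5-fold higher in HA-Macro 12 h, against 4.31% of all single-copy windows, and 1.16% were higher in anti-MacroH2A2, against 14.1%. HA-Macro 6 h was at 6.82 p.p.m., 3 h at 4.89 and no Dox at 4.33. Anti-MacroH2A2 was at 5.70 p.p.m., above HA-Macro 3 h. In the highest 1% (751 windows) anti-MacroH2A2 was at 6.19 p.p.m., HA-Macro 12 h at 8.05 and HA-Macro 6 h at 8.81. HA-Macro 3 h was at 7.01 p.p.m. there and no Dox at 4.55, and the median ratio was 0.38. The highest decile had a median GC of 45.2%. Windows of like GC (44.7%, the ninth GC decile) had a median ratio of -0.02, against 0.28 in the highest HA-H3.3 decile.

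At promoters the same rank gave the reverse. Anti-MacroH2A2 rose from 0.57 to 1.64 p.p.m. across the deciles and HA-Macro 12 h from 0.47 to 0.88 p.p.m. The ratio of sums fell from -0.29 in the lowest decile to -0.85 in the fifth. It then stayed between -0.85 and -0.93, at -0.89 in the highest. HA-H3.3 at 6 h also rose with CpG content, from 0.80 p.p.m. under 0.3 to 3.96 p.p.m. at 0.9 or more, where the ratios were -0.26 and -0.96. CpG content and HA-H3.3 were not separated at promoters. From the fourth to the highest decile HA-Macro 12 h stayed between 0.77 and 0.88 p.p.m., while HA-Macro 3 h rose from 0.98 to 1.73 p.p.m.

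**Figure D4:**
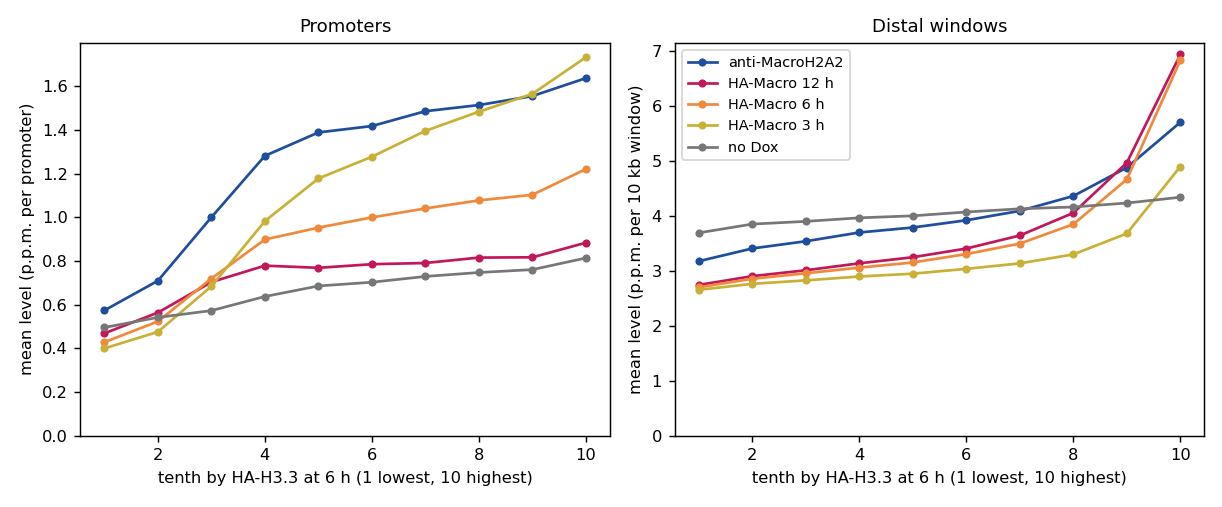
Mean level in p.p.m. of 5 ES libraries at promoters (left, 1.2 kb windows) and in 10 kb distal windows (right), by decile of HA-H3.3 at 6 h, over single-copy features outside the segments. In distal windows HA-Macro 12 h rises from 2.74 to 6.93 and crosses anti-MacroH2A2, which rises from 3.17 to 5.70, and at promoters HA-Macro 12 h stays below anti-MacroH2A2 throughout.

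The single-copy distal windows ranked first for HA-Macro 12 h were high without Dox as well. The window at chr13:111530001-111540000, whose nearest gene is the kinase Plk2, held 30 anti-MacroH2A2, 302 HA-Macro 12 h and 142 no-Dox midpoints, or 3.62, 17.6 and 12.5 p.p.m. Those at chr3:148710001-148720000 (nearest gene Lphn2) and chr14:86590001-86600000 (Diap3) were at 19.1 and 16.3 p.p.m. in HA-Macro 12 h, with 10.4 and 14.8 p.p.m. without Dox. The mean of no Dox over all distal single-copy deciles of GC lay between 3.88 and 4.41 p.p.m., so that these 3 windows stood out in the anti-HA background. For anti-MacroH2A2 the windows ranked first outside the segments were at chr15:61090001-61100000 (4.47 against 1.17 p.p.m.), chr1:116860001-116870000 (5.43 against 1.57 p.p.m.) and chr17:73370001-73380000 (6.40 against 1.98 p.p.m.). No Dox was at 3.43, 4.04 and 2.72 p.p.m. there, above HA-Macro 12 h in each.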

How the data were processed

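Per the labels and the study's methods, the authors collapsed reads by sequence while keeping their occurrences, ran Bowtie 1.0 against mm9 with at most 1 mismatch, placing reads of several origins at 1 random location, and extended them in the 3′ direction. The deposited files list mapped intervals (chromosome, start, end) with no strand and no count. Intervals are 400 bp long for anti-MacroH2A2 and HA-H3.3 and 150 bp for HA-Macro, whereas the methods give 1 length for all. Tiles with 70% or more repeated words were close to empty in the 400 bp files. Whether reads of several origins were placed alike in both kinds of file was not tested.

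Here each distinct interval on chromosomes 1 to 19 was counted once at its midpoint and scaled to p.p.m. The files hold 8545703 anti-MacroH2A2 and 18829306 HA-Macro 12 h intervals. Of the 8322155 and 18253266 on these chromosomes, 0.459% and 6.03% were repeats of another. Of the 100 kb tiles with any no-Dox midpoint, the 1% with the most was discarded. Genes and sequence came from the mm9 reference with GENCODE annotation. A feature was tested with at least 20 midpoints (promoters) or 40 (bodies, distal windows) in both libraries together, and called at 2-fold (promoters) or 1.5-fold (others). For medians and calls, 1 midpoint was added to each library, except for tiles. Counting intervals are 95% Clopper-Pearson intervals and cover counting error only, since PCR reads are not independent molecules. With 1 library per condition no test was run. The ratio and its interval were tested on simulated data.

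Named features were the 8 promoters and bodies and the 3 tiles and windows at either end, ranked by the bound of the counting interval nearest to equal levels, and list members with the most midpoints. One promoter that this rule names is not reported here. The members and lists were chosen with earlier results of these data known. Repeated sequence was measured as the share of 36-base words, taken every 25 bases, that recur in the reference. Segments were runs of at least 10 single-copy tiles whose running median over 11 tiles deviated by more than 0.4. Alternatives changed the counting of repeats, the scaling, the discarded tiles, the window, the minimum, the gene set and the time of induction. HA-Macro in MEFs at 3 h and 6 h, 2 libraries, was not used. Python 3.11.15, numpy 2.4.6, pandas 2.3.3, scipy 1.17.1 and matplotlib 3.10.9 were used.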

Additional observations from a re-analysis of the deposited data

How the results depend on the processing

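Of 122 alternative values of the main counts, the agreement and the GC gap, 82 stayed within 1.5 times or within the set limits. The balance of the 2 directions turned in some. Distal windows, 11996 higher in HA-Macro 12 h and 11183 in anti-MacroH2A2, became 10360 and 15065 with every interval counted and 12066 and 13106 with HA-Macro at 6 h. With every interval counted, anti-MacroH2A2 was higher in 289 tiles and r was 0.623. Centring on the median tile gave 75 such tiles. With no tile discarded r was 0.619, and with the top 5% discarded it was 0.613. The difference of the ratio between the highest and lowest GC deciles was -0.0003 over all compared tiles, which are not the single-copy tiles arranged by GC above. This difference was -0.0129 and 0.0457 under these settings, 0.0901 in tiles without a gene and, chosen after the data were seen, 0.0256 without promoters. With HA-Macro at 6 h it was -0.0999, r was 0.619, and anti-MacroH2A2 was higher in 361 tiles and at 2415 promoters. Tiles of 1 Mb gave 73 and 3 tiles (HA-Macro 12 h higher, anti-MacroH2A2 higher) and r of 0.758, and 2-fold gave 507 and 19. Division by no Dox gave r of 0.537 and Spearman's rho was 0.845. Promoters higher in HA-Macro 12 h numbered 520 with 1 kb on each side of the TSS, 845 with at least 10 midpoints, 12 with at least 40 (724 for anti-MacroH2A2), 497 for all annotated genes and 96 where the counting interval left out equal levels. Bodies with at least 100 midpoints gave 486. Distal windows gave 6415 and 7854 at 50 kb from genes, which also turns the balance, and 3384 and 1617 with at least 100 midpoints. Single-copy sequence alone, also chosen after the data were seen, gave 160 tiles, r of 0.877, 104 promoters, 290 bodies and 3568 windows higher in HA-Macro 12 h, and outside the segments 48, 0.890, 103, 236 and 3241. Anti-MacroH2A2 was higher in 92 tiles and 10615 windows there, so that these balances turned too. The cause of these changes was not tested, apart from fewer or other features entering by construction. The alternative on masked repeats was not run, because the reference marks none. No paired analysis was possible because each condition has 1 library. Depth limits single promoters most, at medians of 13 and 16 midpoints.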

Other observations

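The same pair of antibodies in MEFs gave values side by side, over the features defined above. In tiles with 70% or more repeated sequence the median ratio of HA-Macro 12 h to anti-MacroH2A2 in MEFs was 2.69, against 2.94 in ES cells. At single-copy promoters the ratio of summed reads was -0.50 in MEFs for CpG observed over expected of 0.7 to 0.9, and -0.08 under 0.3, against -0.99 and -0.26 in ES cells. Across GC deciles of single-copy tiles it went from -0.29 in the lowest to 0.06 in the highest. In distal windows of the highest HA-H3.3 decile the ES ratio was 0.28 and the MEF ratio 0.13. The ES and MEF pairs were not tested against each other.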
